A study of Mus musculus with 2 samples.

Results

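CD8 T cells were taken from the cells of parietal bone defects by their counts of T cell receptor complex and coreceptor transcripts. A barcode counted as a CD8 T cell when it had at least 200 detected genes, at most 20% mitochondrial UMIs (unique molecular identifiers, 1 for each RNA molecule captured), at least 2 UMIs of Cd3d, Cd3e and Cd3g together, at least 1 UMI of Cd8b1 and 0 UMIs of Cd4. This rule found 345 cells among the 23333 deposited barcodes, of which 22810 passed the gene and mitochondrial limits. The CGG-Cit library gave 150 and the CGG library 195. Both libraries came from wild type C57BL/6 mice, 14 days after surgery, from 2 mm defects that held either a CGG-Cit hydrogel or a CGG hydrogel. Tissue trimmed from the defects was treated with 0.3% collagenase and passed through 70 µm strainers before droplet-based 3' RNA sequencing. The labels spell out neither hydrogel name, and no source used here says how many mice went into either. Each hydrogel has 1 library, so no difference between hydrogels could be tested, and the 95% intervals given below cover nothing but counting error.

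CD8 T cells recognise peptides on MHC class I molecules through the T cell receptor and the CD8 coreceptor, a dimer of the Cd8a and Cd8b1 products. Naive CD8 T cells circulate through lymphoid organs with homing receptors such as the one encoded by Ccr7. Memory and effector cells instead carry chemokines such as Ccl5, killer lectin-like receptors and granules of granzymes and perforin, and in bone marrow they form a known resting pool of memory cells. Inhibitory receptors such as PD-1, encoded by Pdcd1, appear after stimulation of the receptor.

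CD8 T cells had a median of 5633 UMIs and 1848.5 genes with CGG-Cit and of 4862 UMIs and 1749 genes with CGG. Median depth of B lineage barcodes, which served as the measure of free RNA in droplets, was 3523 UMIs with CGG-Cit and 3104 UMIs with CGG. These were barcodes with at least 3 UMIs of Cd79a and Cd79b and no Cd3 UMI, 4360 with CGG-Cit and 1177 with CGG. There were 34 barcode sequences present in both libraries, and 2 CGG-Cit members and 0 CGG members were among them. Some members also carried RNA of another lineage. With a limit chosen after seeing the data, 27 CGG-Cit and 41 CGG members counted as mixed. They held a marker list of another lineage above 5 times the median of their own library's members and above 20 per 10000 UMIs. The mesenchymal list had medians of 0 per 10000 UMIs with CGG-Cit and 18.5 with CGG, so its limit was higher with CGG. These mixed members had median depths of 10511 UMIs with CGG-Cit and 8364 UMIs with CGG, against 5184 and 4695.5 UMIs in the others, and supplied 29.8% and 35.1% of all member UMIs. For many genes and lists of the comparison between hydrogels, values without the mixed members (123 CGG-Cit and 154 CGG cells) are given beside those over all members.

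The label was checked with Cd8a, which the rule did not use. Cd8a was detected in 82.7% of CGG-Cit and 76.4% of CGG members, against 0.390% and 0.340% of B lineage barcodes. Its level, in summed counts per 1000000 UMIs (CPM), was 349 CPM with CGG-Cit (411 UMIs) and 384 CPM with CGG (528 UMIs). Close to the rule's limits, 4 CGG-Cit and 8 CGG members had exactly 2 Cd3 UMIs, and 18 and 40 had a single Cd8b1 UMI. Just outside it, 2 CGG-Cit and 24 CGG barcodes had 1 Cd3 UMI with Cd8b1 and no Cd4, and 3 and 10 had a single Cd4 UMI beside Cd3 and Cd8b1. A further 17 and 14 Cd3 barcodes without Cd4 had Cd8a but no Cd8b1. Of the natural killer list, 10 of 12 genes were detected in each library, with 1747 UMIs in all with CGG-Cit and 1780 with CGG. A member held at most 245 of them per 10000 UMIs with CGG-Cit and 130.2 with CGG, with medians of 1.86 and 3.04. Gzma, Eomes and Klre1 of this list are also genes of CD8 T cells, while Ncr1, which defines natural killer cells, had 11 UMIs with CGG-Cit and 0 UMIs with CGG. The 9 genes of the gamma delta and innate-like T cell list had 67 UMIs with CGG-Cit and 203 with CGG, and 2 and 0 of them were at 0 UMIs. A member held at most 25.8 and 46.4 of these per 10000 UMIs, with medians of 0 and 0. Of the immature thymocyte list, 3 of 9 genes had 0 UMIs with CGG-Cit and 4 of 9 with CGG. Cd4 is among these in each library because the rule holds it at 0 UMIs. The list also holds Themis, which is given below among the leading genes of the members. Genes of the constant regions of the T cell receptor were absent from the measured genes, so alpha beta and gamma delta T cells could not be told apart by them.

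Against all other kept barcodes, the leading genes of CD8 T cells included Cd8a, Gzmk and Themis. Across 16105 genes with at least 20 UMIs, 4.82% were at least 2-fold higher in the members in both libraries and 24.4% at least 2-fold lower, and since the cells were chosen by T cell genes these counts describe the cells and test nothing. The 15 leading genes, apart from those of the rule, were Cd8a, Gzmk, Themis, Lcn4, Ifng, Wdr95, Ccl5, Ms4a4b, Gimap7, Ctsw, Klrc1, Sidt1, Lck, Cd96 and Sh2d1a. Gzmk, a granzyme of memory CD8 T cells, was at 102 CPM with CGG-Cit and 119.9 CPM with CGG, against 0.416 and 0.650 CPM in all other barcodes. Ccl5, a chemokine that attracts T cells and monocytes, was at 5589 CPM with CGG-Cit and 5412 CPM with CGG, against 175 and 215 CPM elsewhere. Themis tunes receptor signalling in developing T cells and was at 90.1 CPM with CGG-Cit and 110.5 CPM with CGG. Lck, the kinase that starts this signalling, was at 230.3 CPM with CGG-Cit and 243 CPM with CGG. Ms4a4b, a membrane protein of T cells, was found in 100% of CGG-Cit and 95.4% of CGG members, against 4.40% and 4.16% of B lineage barcodes.

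**Figure D1:**
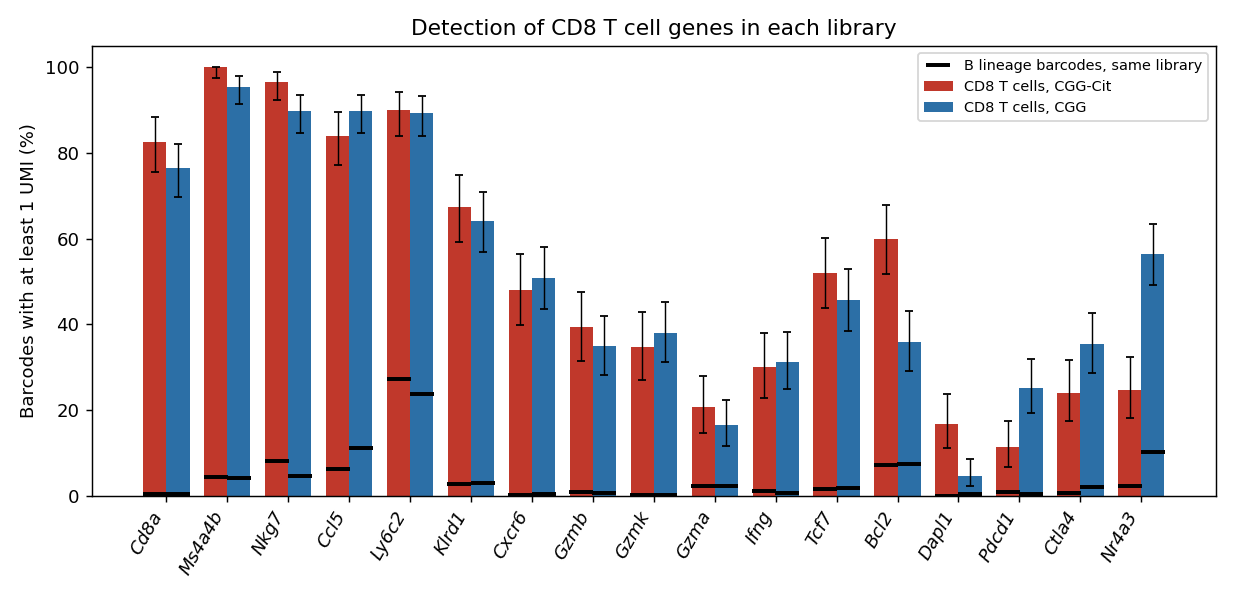
Share of CD8 T cells with at least 1 UMI of a gene (bars, % of 150 CGG-Cit and 195 CGG cells) with exact binomial 95% intervals. Black marks give the share of B lineage barcodes of the same library, the level that free RNA reaches. Cd8a, Ccl5, Nkg7 and Ms4a4b stand far above that level in both libraries, and Bcl2 and Dapl1 were found in more CGG-Cit cells and Pdcd1 and Nr4a3 in more CGG cells.

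CD8 T cells were set against CD4 T cells, which were Cd3 barcodes with Cd4 and without Cd8a or Cd8b1 UMIs (92 with CGG-Cit and 209 with CGG). RNA of other lineages in CD4 T cells was not removed and differed between the libraries. The neutrophil list summed to 44768 CPM with CGG-Cit and 8067 CPM with CGG, and the mast cell and basophil list to 5262 and 13.7 CPM. The mesenchymal list summed to 38.1 and 7139 CPM. The part of this RNA in the values for CD4 T cells was not tested. CD8 T cells held more transcripts of granzymes and of natural killer receptors than CD4 T cells in both libraries. Of 10022 genes, 117 (1.17%) were at least 2-fold higher in CD8 T cells in both libraries and 147 (1.47%) at least 2-fold lower. The cytotoxic and effector list had 9 of 20 genes in the first set and 0 in the second, with median log2 ratios of 1.08 with CGG-Cit and 1.05 with CGG, against medians over all genes of -0.08 and -0.06. Gzma was at 741 against 23.2 CPM (CD8 against CD4 T cells) with CGG-Cit and 445 against 39.3 CPM with CGG. Ccl5 was at 5589 against 856 CPM with CGG-Cit and 5412 against 881 CPM with CGG, ratios of 6.53 and 6.15. Both genes were higher in CD8 T cells of both libraries, and so was Gzmk, at 102 against 14.9 CPM with CGG-Cit and 119.9 against 5.61 CPM with CGG.

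Eomes, a T-box transcription factor of memory CD8 T and natural killer cells, was at 51.0 CPM in CGG-Cit CD8 T cells and had 0 UMIs in CGG-Cit CD4 T cells, where 3 UMIs would be 4.97 CPM. With CGG it was at 61.8 against 3.74 CPM. Gzmm showed the same order, with 35.7 CPM and 0 UMIs with CGG-Cit and 13.1 against 0.623 CPM with CGG. Klrd1 encodes CD94, and its ratio of CD8 over CD4 T cells was 3.93 (2.91 to 5.4) with CGG-Cit and 3.72 (3.0 to 4.64) with CGG. Klrc1 encodes its inhibitory partner NKG2A and had ratios of 6.84 (3.49 to 15.3) with CGG-Cit and 4.0 (2.93 to 5.55) with CGG. Klre1, another lectin-like receptor, had ratios of 13 (4.28 to 64.4) and 11.7 (4.68 to 37.5). The intervals of these 3 receptor genes lay above 2 in both libraries.

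Most of the genes named as lower in CD8 T cells were genes of helper and regulatory CD4 T cells. Cd40lg, the helper ligand for B cells, was at 0.850 against 77.8 CPM with CGG-Cit and 5.81 against 74.8 CPM with CGG. Tnfrsf4, the costimulatory receptor OX40, was at 1.70 against 164 CPM and 34.9 against 312 CPM. Foxp3, the regulatory T cell factor, had 0 UMIs in CD8 T cells and 46.4 CPM in CD4 T cells with CGG-Cit, and 9.45 against 72.3 CPM with CGG. The 9 genes of the CD4 and regulatory list that passed the fold in both libraries, of 11 compared, all lay in this direction, which the choice of cells by Cd4 partly sets. A pair of cytokine genes with roles in bone and repair were also lower in CD8 T cells. Tnfsf11, which encodes the osteoclast factor RANKL, was at 2.55 against 33.1 CPM with CGG-Cit and 10.9 against 99.7 CPM with CGG. Areg, which encodes amphiregulin, was at 1.70 against 58.0 CPM and 8.72 against 219 CPM. Il10 and Izumo1r completed the set with Elane, a neutrophil granule gene that reached 1163 and 366 CPM in B lineage barcodes.

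**Figure D2:**
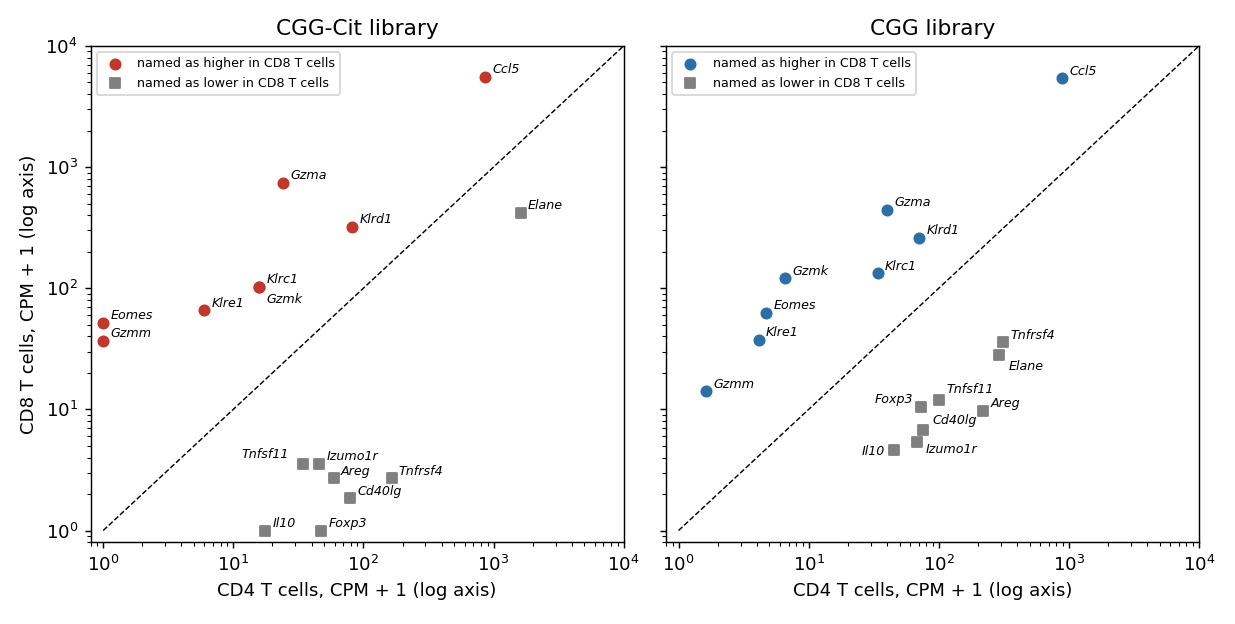
Summed counts per 1000000 UMIs (CPM, with 1 added, log axes) of the genes named between CD8 T cells (vertical axis) and CD4 T cells (horizontal axis), in the CGG-Cit library (left) and the CGG library (right). Granzyme and lectin receptor genes lie above the dashed line of equal level in both libraries, and helper and regulatory genes below it.

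Most CD8 T cells had a UMI of Ccl5, which naive T cells lack. It was found in 84.0% (77.1 to 89.5%, 126 of 150 barcodes) of CGG-Cit members and 89.7% (84.6 to 93.6%, 175 of 195 barcodes) of CGG members. With each cell thinned to 1000 UMIs, which left out 1 CGG-Cit and 2 CGG members, the shares were 75.2% and 79.8%. Ccl5 was found in 42.4% and 54.1% of CD4 T cells and in 6.17% and 11.2% of B lineage barcodes. Ccr7, a homing receptor of naive and central memory cells, was found in 26% of CGG-Cit and 12.3% of CGG members. B lineage cells also make Ccr7, with shares of 21.5% and 29.0%, so they give no free RNA level for it. Cxcr6, a chemokine receptor of tissue memory cells, was found in 48% of CGG-Cit and 50.8% of CGG members, against 0.183% and 0.425% of B lineage barcodes.

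Granzyme genes marked overlapping sets of members. Gzma or Gzmb was found in 44.0% (35.9 to 52.3%, 66 of 150 barcodes) with CGG-Cit and 41.0% (34.0 to 48.3%, 80 of 195 barcodes) with CGG. Gzmb and Gzmk were found together in 33 CGG-Cit members, Gzmb without Gzmk in 26 and Gzmk without Gzmb in 19. With CGG the same counts were 34, 34 and 40. Gzma was found in 24 CGG-Cit and 20 CGG members together with Gzmb, and in 7 and 12 without it. Gzma transcripts were concentrated, since the 5 members richest in Gzma held 74.2% of its UMIs with CGG-Cit and 57.9% with CGG. Prf1, which encodes perforin, was found in 14.7% of CGG-Cit and 6.15% of CGG members, against 0.436% and 0.255% of B lineage barcodes. Cycling members, with at least 2 UMIs over 6 mitosis genes, made up 23.3% (16.8 to 30.9%, 35 of 150 barcodes) with CGG-Cit and 18.5% (13.3 to 24.6%, 36 of 195 barcodes) with CGG. Gzmb was found in 54.3% and 55.6% of the cycling members and in 34.8% and 30.2% of the others. Cycling members were also deeper, with medians of 10524 and 9560.5 UMIs against 5181 and 4595 UMIs, and the part of depth in these shares was not tested.

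Members with a Ccl5 UMI held more granzyme and cytokine transcripts than members without one, and fewer of Ccr7, in both libraries. Of 8462 genes, 822 (9.71%) were at least 2-fold higher in Ccl5-positive members in both libraries and 55 (0.650%) at least 2-fold lower. The higher count leans on low counts, because the 24 CGG-Cit and 20 CGG members without Ccl5 are few: 758 of the 822 genes had 3 UMIs or fewer in these members in at least 1 library. Of the cytotoxic and effector list, 15 of 20 genes were higher and 0 lower, and Ccl5, which made the split, is among the 15. Of the naive and recirculating list, 0 of 16 were higher and 5 lower. Gzmb was at 295 CPM in Ccl5-positive members and 0 UMIs in Ccl5-negative members with CGG-Cit, and at 300.3 against 16.3 CPM with CGG. Ifng, which encodes interferon gamma, was at 152 against 6.31 CPM with CGG-Cit and 242 against 5.44 CPM with CGG. Gzma, Ccl4, Gzmk, Klrc1, Klrk1 and Fasl, the ligand of the death receptor Fas, lay the same way. So did the interferon-induced Ifit1 and Apoe, a macrophage gene that reached 67.4 and 2573 CPM in B lineage barcodes.

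The genes lower in Ccl5-positive members included Ccr7 and genes of resting T cells. Ccr7 was at 56 against 271 CPM (Ccl5-positive against Ccl5-negative members) with CGG-Cit and 23.5 against 141 CPM with CGG. Dapl1, a gene of naive and memory-precursor CD8 T cells in mice, was at 50.1 against 517 CPM with CGG-Cit and 11.7 against 48.9 CPM with CGG, and in B lineage barcodes at 0 and 0.693 CPM. Satb1, a chromatin organiser of resting T cells, was at 145 against 379 CPM and 133 against 315 CPM. Actn1, Il6ra, Fam65b, Tmem108 and Tspan13 were also lower in Ccl5-positive members, as was Mzb1, a B lineage and plasma cell gene at 469 and 562 CPM in B lineage barcodes.

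**Figure D3:**
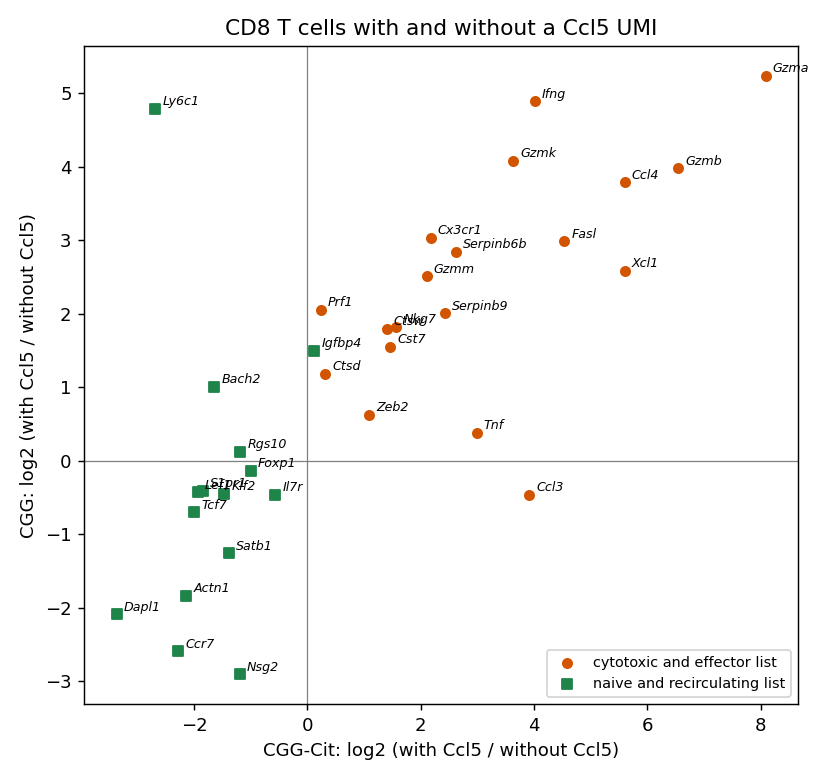
Log2 ratio of CPM between members with and without a Ccl5 UMI (0.5 UMI added) in the CGG-Cit library (horizontal axis) and the CGG library (vertical axis), for genes of the effector list (circles, without Ccl5) and of the naive list (squares, 1 gene not shown). Granzymes, Ifng and Ccl4 lie at the upper right, and Ccr7, Dapl1, Actn1 and Nsg2 at the lower left.

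Upstream sequence is shown for 3 effector genes whose list was higher in Ccl5-positive members. RUNX and T-box factors, among them Runx3 and Eomes, are known regulators of the cytotoxic programme. The 250 bases before the RefSeq start (build GRCm38.p6) of Nkg7, a granule membrane protein, Gzma and Gzmm are shown, with matches to the RUNX core TGTGGT and the T-box core GGTGTGA, on either strand, in capitals. These windows lie at chr7:43436888-43437137 (plus strand), chr13:113100982-113101231 (minus strand) and chr10:79688770-79689019 (plus strand), the first entry for each gene in the RefSeq table.
Nkg7: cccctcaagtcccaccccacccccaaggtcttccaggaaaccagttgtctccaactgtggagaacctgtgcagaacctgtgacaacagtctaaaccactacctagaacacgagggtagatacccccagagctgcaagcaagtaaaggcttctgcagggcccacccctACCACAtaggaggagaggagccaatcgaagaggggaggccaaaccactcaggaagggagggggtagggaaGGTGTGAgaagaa
Gzma: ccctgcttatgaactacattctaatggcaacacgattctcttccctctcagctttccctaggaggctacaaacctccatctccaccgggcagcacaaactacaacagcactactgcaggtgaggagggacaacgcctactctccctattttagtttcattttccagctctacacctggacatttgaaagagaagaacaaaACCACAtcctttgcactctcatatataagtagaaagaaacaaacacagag
Gzmm: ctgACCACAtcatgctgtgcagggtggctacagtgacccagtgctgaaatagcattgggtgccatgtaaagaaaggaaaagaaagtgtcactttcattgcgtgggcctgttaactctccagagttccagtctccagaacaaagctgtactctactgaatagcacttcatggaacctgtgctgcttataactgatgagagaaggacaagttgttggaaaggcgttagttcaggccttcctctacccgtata
Windows were present for 17 genes of the effector list, and 9 of them (52.9%) held the RUNX core, against 14.2% of 27025 genes. The T-box core was in 3 of the 17 (17.6%), against 3.31% of all genes, and among the 3 shown it was in Nkg7. For Ccl3, Gzmb, Gzmk, Prf1 and Zeb2 the bases after the window were not found in an annotated transcript of the gene. Of these, Ccl3, Gzmb and Prf1 held the RUNX core and Gzmk the T-box core, and they are counted above. The 3 genes shown passed this check and each hold a match, and the other sets were not checked. Of 13 genes of the naive and recirculating list with a window, 0 held either core. A match is a run of letters and does not show that a factor binds there.

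The first comparison between hydrogels addressed how many CD8 T cells the defects held. Their share of all kept barcodes was 1.42% (1.21 to 1.67%, 150 of 10531 barcodes) with CGG-Cit and 1.59% (1.37 to 1.83%, 195 of 12279 barcodes) with CGG, a difference (CGG-Cit minus CGG) of -0.164 percentage points (-0.480 to 0.156). Within Cd3 barcodes the share was 30.9% (26.8 to 35.3%, 150 of 485 barcodes) with CGG-Cit and 21.7% (19.1 to 24.6%, 195 of 898 barcodes) with CGG, a difference of 9.21 percentage points (4.36 to 14.2). Barcodes that met the CD8 rule were thus a larger part of the Cd3 barcodes with CGG-Cit, beyond counting error. Their share of all kept barcodes differed by less than counting error. CD4 T cells were 19.0% of Cd3 barcodes with CGG-Cit and 23.3% with CGG. Cd3 barcodes with neither Cd4 nor Cd8 UMIs, which stayed untyped, were 45.8% with CGG-Cit and 51.8% with CGG. Their median depths were 5102 and 4015 UMIs, and the part of depth in these shares was not tested. Variation between mice cannot be told apart from the hydrogel here.

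CD8 T cells of the CGG-Cit library held more transcripts of naive genes and fewer of inhibitory receptor and immediate early genes than those of the CGG library. Of 8462 genes, 353 (4.17%) were at least 2-fold higher with CGG-Cit and 999 (11.8%) at least 2-fold lower, and the median log2 ratio over all genes was -0.08. Of these genes, 899 were at 2 times the B lineage level or more in the library where they were higher. Among them 22 (2.45%) were at least 2-fold higher and 161 (17.9%) at least 2-fold lower, with a median of -0.32. The direction of a gene's ratio thus set the library in which it had to pass, so these counts describe the genes and test nothing. Without the mixed members the count of 2-fold lower genes was 421 in place of 999.

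The naive and recirculating list had 14 of 16 genes higher with CGG-Cit, 5 of them by 2-fold or more, with a median log2 ratio of 0.26 (0.25 without the mixed members). The same genes had a median of 0.31 in CD4 T cells and -0.50 in B lineage barcodes. Ccr7 was at 85.0 CPM with CGG-Cit (100 UMIs) and 39.2 CPM with CGG (54 UMIs), a ratio of 2.17 (1.54 to 3.07). Lef1, a transcription factor of naive T cells, had a ratio of 1.82 (1.40 to 2.38), and its partner Tcf7 one of 1.30 (1.06 to 1.60). Without the mixed members the ratios were 2.16 (1.47 to 3.23) for Ccr7, 1.54 (1.15 to 2.07) for Lef1 and 1.20 (0.960 to 1.5) for Tcf7. Ccr7 and Lef1 were thus higher with CGG-Cit beyond counting error in both sets of members, while the interval of Tcf7 included 1 without the mixed members. With the 28 CGG members that held fewer than 3 UMIs of 14 genes of other lineages, the log2 ratio of Ccr7 was 0.10, with an interval that included 0. In CD4 T cells the ratios of Ccr7, Lef1 and Tcf7 were 0.886, 1.08 and 1.22. After thinning, Ccr7 was found in 11.4% and 4.66% of CGG-Cit and CGG members, against 6.60% and 13.1% of B lineage barcodes.

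Among the genes named for this comparison, Dapl1 had the highest lower bound of the ratio. It was at 113 CPM with CGG-Cit (133 UMIs) and 16.7 CPM with CGG (23 UMIs), a ratio of 6.76 (4.32 to 11.0), and 9.58 (5.50 to 18.0) without the mixed members. It was found in 16.7% of CGG-Cit and 4.62% of CGG members and in 0% and 0.255% of B lineage barcodes, and after thinning in 10.1% and 0.518% of members. Its UMIs were concentrated, with 46.6% in 5 cells with CGG-Cit and 78.3% with CGG. Nsg2, which marks recent and resting T cells, had a ratio of 3.51 (1.83 to 7.16), and 3.54 (1.76 to 7.71) without the mixed members. Bcl2, which protects resting lymphocytes from cell death, was at 212 CPM with CGG-Cit (250 UMIs) and 109 CPM with CGG (150 UMIs), a ratio of 1.95 (1.59 to 2.40), and 1.69 (1.35 to 2.12) without the mixed members. It was found in 60% of CGG-Cit and 35.9% of CGG members. After thinning the shares with Bcl2 were 18.1% and 8.81%, against 1.30% and 1.29% of B lineage barcodes. In CD4 T cells the Bcl2 ratio was 2.74 and in B lineage barcodes 1.01. Bach2 and Igfbp4 depended on the mixed members, with ratios of 2.75 and 0.229 over all members and 1.04 and 1.16 without them. Besides Igfbp4, Ly6c1 went against the list's direction, with 0 UMIs with CGG-Cit and 270 UMIs with CGG, and it was found in 0.619% and 15.5% of B lineage barcodes.

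The other genes named as higher with CGG-Cit differed by less. Txk, a kinase of T cells, had a ratio of 1.77 (1.38 to 2.27), Ltb, which encodes lymphotoxin beta, 1.5 (1.33 to 1.69), and Slfn1, which is linked to T cell quiescence in mice, 1.52 (1.24 to 1.86). Klre1, Phf11c, Ms4a4b and Ms4a4c had ratios between 1.29 and 1.78. Txk was found in 50% of CGG-Cit and 31.3% of CGG members, and Slfn1 in 61.3% of CGG-Cit and 46.2% of CGG members. Tmcc2 was an exception, because 94.5% of its CGG-Cit UMIs lay in 5 cells and its ratio was 5.02 over all members and 0.721 without the mixed members.

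**Figure D4:**
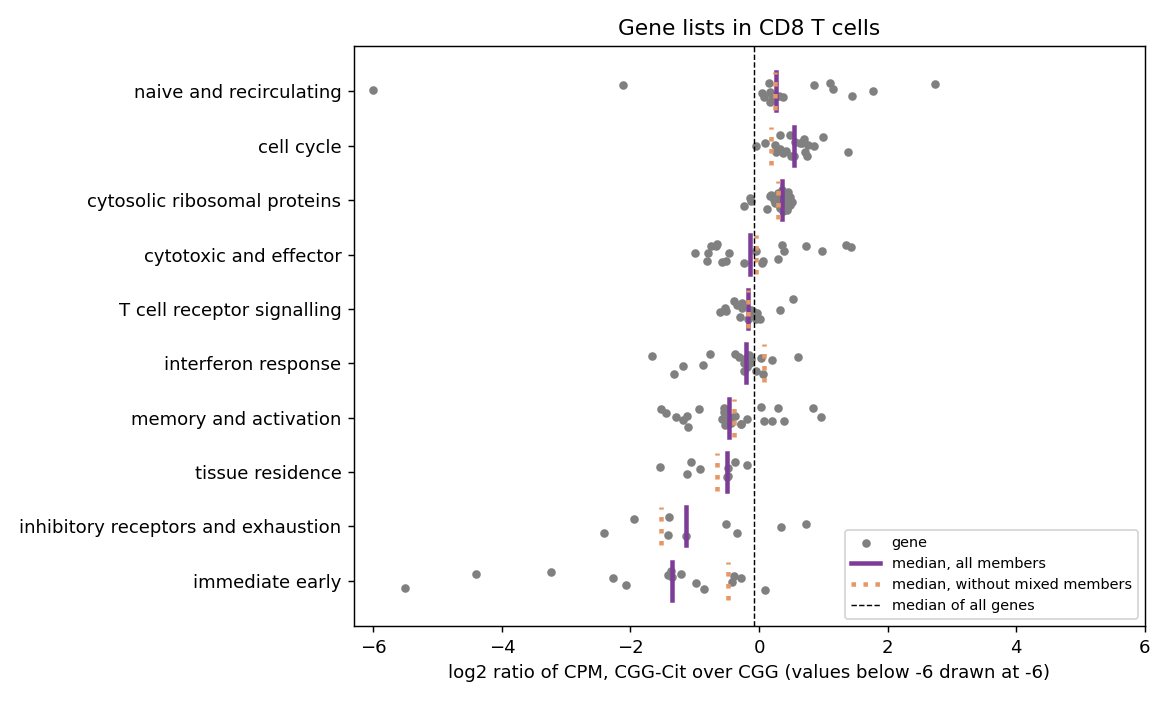
Log2 ratio of CPM (CGG-Cit over CGG) in CD8 T cells for each gene of 10 lists (points), with the list's median over all members (solid bar) and without the mixed members (dotted bar), beside the median of all genes (dashed line, -0.08). Naive, cell cycle and ribosomal genes lie to the right and residence, inhibitory and immediate early genes to the left, and the immediate early median moves by most when the mixed members are left out (values below -6 are drawn at -6).

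Inhibitory receptor and exhaustion genes lay lower with CGG-Cit. The list had 2 of 9 genes higher and 5 lower by 2-fold or more, with a median log2 ratio of -1.13 (-1.53 without the mixed members), against -1.07 in B lineage barcodes and -0.71 in CD4 T cells for the same genes. Pdcd1 was at 19.5 CPM with CGG-Cit (23 UMIs) and 106 CPM with CGG (146 UMIs), a ratio of 0.184 (0.113 to 0.287), and 0.136 (0.0770 to 0.226) without the mixed members. Members with a Pdcd1 UMI were 11.3% of CGG-Cit and 25.1% of CGG members, against 0.872% and 0.340% of B lineage barcodes, and without the mixed members they were 10.6% and 27.9%. After thinning the shares were 2.01% and 9.33%, the CGG-Cit one resting on a few cells. In CD4 T cells the Pdcd1 ratio was 0.658. Ctla4, an inhibitory receptor that competes with Cd28, was at 60.3 CPM with CGG-Cit (71 UMIs) and 133 CPM with CGG (183 UMIs), a ratio of 0.454 (0.340 to 0.600), and 0.339 (0.244 to 0.464) without the mixed members. In CD4 T cells its ratio was 0.452. Lag3 was low in both libraries (5 UMIs with CGG-Cit and 10 UMIs with CGG), and Havcr2, Tigit and Tox2 had 2, 1 and 0 UMIs with CGG-Cit and 17, 9 and 1 UMIs with CGG. Pdcd1 was found together with Cxcr6 in 11 CGG-Cit and 35 CGG members, and without it in 6 and 14.

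The nuclear receptor genes of the same list, which the T cell receptor induces within hours, were lower too. Nr4a3 was at 62.9 CPM with CGG-Cit (74 UMIs) and 243 CPM with CGG (334 UMIs), a ratio of 0.259 (0.199 to 0.334), and Nr4a2 at 127 CPM with CGG-Cit (150 UMIs) and 336 CPM with CGG (462 UMIs), a ratio of 0.38 (0.314 to 0.457). Without the mixed members the ratios were 0.317 (0.239 to 0.417) for Nr4a3 and 0.331 (0.266 to 0.409) for Nr4a2. Ratios below 1 were also seen in other lymphocytes. Nr4a3 had a ratio of 0.248 in CD4 T cells and 0.167 in B lineage barcodes, and Nr4a2 had 0.276 and 0.325. Slamf6, which marks less differentiated memory cells, was higher with CGG-Cit, at a ratio of 1.67 (1.16 to 2.41), and was also found in 57.9% and 43.8% of B lineage barcodes.

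Of the memory and activation list 7 of 25 genes were higher, with a median of -0.47 (-0.39 without the mixed members, -0.32 in B lineage barcodes), against 3681 of all 8462 genes and -0.08. Among genes at 2 times the B lineage level or more in their higher library, 7 of 21 of this list were higher. Their median was -0.43. All such genes gave 282 of 899 higher and a median of -0.32. Cd44, the adhesion receptor used to tell memory from naive T cells, was at 92.6 CPM with CGG-Cit (109 UMIs) and 252 CPM with CGG (347 UMIs), a ratio of 0.367 (0.293 to 0.457). The calcium-binding S100a6 had a ratio of 0.441 (0.412 to 0.473) and S100a4 0.521 (0.469 to 0.577). Itgb1, an integrin that binds matrix, had 0.458 (0.397 to 0.528). Ratios without the mixed members were 0.522 for Cd44, 0.526 for S100a6, 0.454 for S100a4 and 0.474 for Itgb1, and those in B lineage barcodes 0.721, 0.456, 0.602 and 0.373. Several receptors and factors of memory CD8 T cells within the list had ratios nearer to 1. Eomes had a ratio of 0.825 (0.583 to 1.16), Tbx21, which encodes T-bet, 1.31 (0.878 to 1.96), and Il2rb, the receptor chain for interleukin 15, 0.822 (0.655 to 1.03). Ly6c2 was at 2382 CPM with CGG-Cit and 2080.0 CPM with CGG and Klrd1 at 319 CPM with CGG-Cit and 259 CPM with CGG, both slightly higher with CGG-Cit.

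Of the 9 tissue residence genes with enough counts 0 were higher with CGG-Cit. The median was -0.50 (-0.66 without the mixed members), against 0.00 in CD4 T cells and -1.71 in B lineage barcodes. Cxcr6 was at 137 CPM with CGG-Cit (161 UMIs) and 191 CPM with CGG (263 UMIs), a ratio of 0.716 (0.585 to 0.874). Rgs1, a brake on chemokine receptor signals, was at 352 CPM with CGG-Cit (414 UMIs) and 664 CPM with CGG (914 UMIs), a ratio of 0.530 (0.470 to 0.595), and Rgs2 had 0.480 (0.405 to 0.566). Prdm1, which encodes Blimp-1, had 0.334 (0.170 to 0.615). Cd69 differed by less than counting error, at a ratio of 0.879 (0.768 to 1.01). Itgae, the CD103 integrin of epithelial residence, had 11 and 17 UMIs, and Zfp683 had 3 UMIs with CGG-Cit and 1 with CGG, so these residence markers were rare in both libraries.

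The cytotoxic and effector list gave no common direction, with 9 of 20 genes higher and a median of -0.14. Its summed level was 9533 CPM with CGG-Cit and 9466 CPM with CGG, and Ccl5 made up most of this sum in each library. Of the 20 genes, 6 had ratio intervals above 1 and 9 below 1. Without the mixed members the ratio of the sums was 0.933 (0.908 to 0.959). Nkg7 was at 1186 CPM with CGG-Cit (1396 UMIs) and 964 CPM with CGG (1326 UMIs), a ratio of 1.23 (1.14 to 1.33). Gzmb was at 255 CPM with CGG-Cit (300 UMIs) and 262 CPM with CGG (361 UMIs), a ratio of 0.972 (0.831 to 1.14), and Ccl5 had a ratio of 1.03 (0.999 to 1.07). Over all members the levels of Gzmb and Ccl5 thus differed by less than counting error. Other settings gave intervals above 0. The log2 ratio of Ccl5 was 0.11 (0.054 to 0.16) with Cd8a required and 0.065 (0.014 to 0.12) without the highest Scrublet scores. Among members with fewer than 3 UMIs of 14 genes of other lineages it was 0.27 (0.16 to 0.38), and that of Gzmb 0.53 (0.0015 to 1.15). Gzmm and Prf1 were higher with CGG-Cit, on few counts (42 and 18 UMIs of Gzmm, 29 and 13 of Prf1), at ratios of 2.73 (1.54 to 5.04) and 2.61 (1.31 to 5.47). Gzma had a ratio of 1.66 (1.5 to 1.85), with most of its UMIs in a few cells as given above. Its log2 ratio was 0.73, and 0.46 (0.30 to 0.62) without barcodes in both libraries. The natural killer list, which holds Gzma and Klre1 and did not enter the limit for mixed members, had 4 of 7 genes higher. Its median was 0.73 (1.15 without the mixed members), against 0.67 in CD4 T cells and 0.33 in B lineage barcodes. Ifng, Ccl4 and Fasl were lower with CGG-Cit. Ifng was at 133 CPM with CGG-Cit (156 UMIs) and 210.0 CPM with CGG (289 UMIs), a ratio of 0.631 (0.516 to 0.769), Ccl4 had 0.635 (0.566 to 0.711) and Fasl 0.666 (0.493 to 0.892). Leaving out members with at least 3 UMIs of 14 genes of other lineages, which kept 123 CGG-Cit and 28 CGG members, the log2 ratio of Ifng was 0.40, with an interval that included 0. Ifng was found in nearly the same share of members, 30% of CGG-Cit and 31.3% of CGG members. Cx3cr1 was at a ratio of 1.98 over all members and 1.18 without the mixed members.

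T cell receptor signalling genes were close in level between the libraries. The list had 3 of 17 genes higher, 0 past 2-fold either way, and a median of -0.17. Lck had a ratio of 0.949 (0.805 to 1.12) and Lat 0.919 (0.788 to 1.07). Cd28, the costimulatory receptor, was lower at 0.659 (0.556 to 0.779), and Prkcq, the kinase that links the receptor to NF-kappa B, was higher at 1.44 (1.13 to 1.85).

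The list of trafficking receptors, which guide T cells into and out of tissue, had 1 of 9 genes higher and a median of -0.48 (-0.46 without the mixed members, -0.87 in B lineage barcodes). Its 8 genes at 2 times the B lineage level or more in their higher library had a median of -0.31. Over all 899 such genes the median was -0.32. Cxcr3, the receptor for interferon-induced chemokines, was at 65.4 CPM with CGG-Cit (77 UMIs) and 94.5 CPM with CGG (130 UMIs), a ratio of 0.693 (0.516 to 0.925). Cxcr4, the receptor for the marrow chemokine Cxcl12, had a ratio of 0.647 (0.534 to 0.783). S1pr1, the receptor by which T cells leave tissue, was the gene that lay higher, at 1.12 (0.891 to 1.40), an interval that includes 1. Cytokine and cytokine receptor genes had 6 of 18 higher and a median of -0.18. Il7r, the receptor for the survival cytokine interleukin 7, was at 302 CPM with CGG-Cit (355 UMIs) and 242 CPM with CGG (333 UMIs), a ratio of 1.25 (1.07 to 1.45). Il2ra, the high-affinity interleukin 2 receptor chain of activated T cells, had 6 UMIs with CGG-Cit and 44 UMIs with CGG, a ratio of 0.159 (0.0555 to 0.376). Ifngr1 and Tgfbr2, receptors for interferon gamma and transforming growth factor beta, had ratios of 0.643 (0.569 to 0.725) and 0.563 (0.442 to 0.714).

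Immediate early genes, which tissue dissociation and receptor signals both switch on, lay lower with CGG-Cit. The list had 1 of 15 genes higher and a median of -1.35, but -0.49 without the mixed members, -1.21 in B lineage barcodes and -0.26 in CD4 T cells. Fos was at 353 CPM with CGG-Cit (415 UMIs) and 902 CPM with CGG (1241 UMIs), a ratio of 0.391 over all members and 0.981 without the mixed members. Egr1 had ratios of 0.206 and 0.410, and Nr4a1, the reporter gene of receptor signalling, 0.507 and 0.537. The heat shock genes Hspa1a and Hspa1b, which dissociation also induces, had 1 and 7 UMIs with CGG-Cit and 172 and 220 UMIs with CGG, while the list of 11 dissociation stress genes had a median of -0.18 (0.01 without the mixed members). The part of tissue dissociation in these values was not tested. Bhlhe40 and Rgs16, named by the rule and not in this list, were lower at 0.265 (0.208 to 0.334) and 0.0675 (0.0242 to 0.152), and without the mixed members at 0.292 and 0.0353. Bhlhe40, a factor of activated and resident T cells, was found in 31.3% of CGG-Cit and 61.0% of CGG members, against 4.82% and 16.2% of B lineage barcodes. In CD4 T cells the ratio of Bhlhe40 was 0.481 and that of Rgs16 0.0735.

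The interferon response list had 4 of 20 genes higher and a median of -0.21, which was 0.08 without the mixed members. Ly6a, an interferon-induced surface antigen that stromal and vessel cells also make, had a ratio of 0.399 over all members and 0.716 without the mixed members, and 0.0757 in B lineage barcodes. Ifit1 and Isg15 had ratios of 0.877 and 0.898 over all members and 1.67 and 1.56 without them, on either side of 1. MHC class I and antigen processing genes had 2 of 12 higher and a median of -0.27.

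Cell cycle genes lay higher with CGG-Cit, in 20 of 21 genes, with a median of 0.55 over all members and 0.18 without the mixed members. B lineage barcodes had a median of 0.74 for these genes and CD4 T cells -0.59. The share of cycling members differed by 4.87 percentage points (-3.68 to 13.7). Stmn1, a microtubule regulator of dividing cells, was at 586 CPM with CGG-Cit (690 UMIs) and 225 CPM with CGG (310 UMIs), a ratio of 2.60 (2.27 to 2.99) that was 1.85 without the mixed members, and Mki67 had ratios of 1.25 and 0.888. Cytosolic ribosomal protein genes were higher in 27 of 30 cases, summing to 128008 CPM with CGG-Cit and 105191 CPM with CGG, with a median of 0.35 (0.17 in B lineage barcodes).

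The title of the series names a citrate cycle metabolite and histone acetylation. The citrate cycle list had 12 of 18 genes higher with CGG-Cit, a median of 0.12 and 0 genes past 2-fold, and without the mixed members 14 of 18 and a median of 0.25. Its summed level had a ratio of 1.13 (1.05 to 1.22), and 1.18 (1.08 to 1.29) without the mixed members. In CD4 T cells the median of the citrate cycle list was -0.16 and in B lineage barcodes 0.21. Genes of citrate transport and acetyl-CoA had 4 of 10 higher and a median of -0.08, and histone acetylation genes 8 of 18 and -0.05. The median over all genes was -0.08.

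RNA of other lineages in the members differed strongly between the libraries, and its part in the values above was not tested beyond leaving out the mixed members. Mesenchymal marker genes summed to 31.4 CPM with CGG-Cit and 6797 CPM with CGG in CD8 T cells, and to 317 and 10335 CPM in B lineage barcodes. Macrophage and monocyte genes summed to 1382 CPM with CGG-Cit and 4781 CPM with CGG. Without the mixed members the mesenchymal sums were 30.3 CPM with CGG-Cit and 1569 CPM with CGG. The macrophage and monocyte sums were then 425 and 1296 CPM. Leaving out the mixed members thus did not even out this RNA between the libraries. Erythroid genes summed to 50431 CPM with CGG-Cit and 9996 CPM with CGG, with 8 of 8 genes higher, and 0.34 as the median log2 ratio without the mixed members, against 2.07 with them. The mesenchymal list had a maximum of 3.15 per 10000 UMIs in a CGG-Cit member and 680.1 in a CGG member, with medians of 0 and 18.5, and its markers Lum, Pdgfra and Prrx1 had 0 UMIs with CGG-Cit. The macrophage list had medians of 2.5 and 15.4 per 10000 UMIs and maxima of 284 and 622, with 5 of its 12 genes (C1qa, C1qb, C1qc, Ms4a7 and Mrc1) at 0 UMIs with CGG-Cit. Several genes named as lower with CGG-Cit had nearly all their UMIs in a few CGG members. Retnla, Ccl2, Tm4sf1, Ackr3 and Tppp3 had 0, 1, 0, 0 and 0 UMIs with CGG-Cit and 888, 563, 96, 95 and 90 UMIs with CGG, of which the richest 5 members held 97.7%, 91.1%, 87.5%, 91.6% and 92.2%. Lmna and Errfi1 were at 0.0892 (0.0528 to 0.142) and 0.219 (0.140 to 0.332), and at 0.321 and 0.428 without the mixed members, and Ifi44 at 0.132 (0.0663 to 0.241) and 0.405.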

How the data were processed

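Droplet-based 3' RNA sequencing of 1 CGG-Cit and 1 CGG library was deposited by the authors as raw UMI counts per gene and barcode for 27998 genes, per the file headers. The file headers name Cell Ranger 4.0.0, whereas the submitters' processing notes name Cell Ranger 3.0 and build mm10. The labels name kit v2 or v3 without saying which was used. Genes for constant regions of T cell receptors and immunoglobulins were absent from the measured genes and so were not used here. Results for some genes of the lists are not reported here.

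Deposited barcodes held 106173570 UMIs with CGG-Cit and 92517884 UMIs with CGG. The limits left out 236 CGG-Cit and 56 CGG barcodes under 200 genes, and 39 and 192 over 20% mitochondrial UMIs. UMIs of CD8 T cells were summed per library (1176791 with CGG-Cit and 1375984 with CGG) and divided by the sum to give CPM. Levels have exact Poisson, ratios exact conditional binomial, shares exact Clopper-Pearson and differences of shares Newcombe 95% intervals, which cover counting error only. Log2 values had 0.5 UMI added to each count. A gene was compared with at least 20 UMIs over the groups and called at 2-fold, in both libraries where 2 classes of cells were compared. For 0 UMIs, 3 UMIs per library were taken as the limit. With 1 library per hydrogel there was no test, and cells were not treated as replicates.

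Named genes were the 15 highest over all other barcodes (at least 50 UMIs), 8 each way against CD4 T cells and 10 each way between members with and without Ccl5 (at least 30 UMIs), all by the interval bound nearest to 1 in the weaker library. Between hydrogels they were 12 each way with at least 50 CPM and 2 times the B lineage level in the higher library, besides members of 30 gene lists (407 of 422 genes measured). The members, lists and comparisons were chosen with earlier results of these data known. Doublets were kept in the values given. Scrublet scores served as an alternative that left out 887 CGG-Cit and 1206 CGG barcodes at 0.8% per 1000 barcodes. Its own threshold marked 537 CGG-Cit barcodes and 1 CGG barcode. Cycling members had at least 2 UMIs over 6 mitosis genes. Alternatives changed the limits on genes, mitochondrial UMIs, Cd3 UMIs and UMIs per gene, required Cd8a, used median-of-ratios scaling, thinned cells to 1000 UMIs, or left out shared barcodes, doublets and members with RNA of other lineages. Promoter windows were from RefSeq (GRCm38.p6). Scripts were tested on simulated data and used Python 3.11.15, numpy 2.4.6, scipy 1.17.1, pandas 2.3.3, scanpy 1.11.5 and matplotlib 3.10.9.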

Additional observations from a re-analysis of the deposited data

How the results depend on the processing

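With at least 3 Cd3 UMIs, Cd8a required, at least 500 genes, at most 10% mitochondrial UMIs, or without barcodes in both libraries, the shares, counts of 2-fold genes and list medians stayed within their intervals or within 1.5 times, as did the Ccl5 share after thinning. With at least 50 UMIs per gene, 136 genes were 2-fold higher and 495 lower with CGG-Cit, 62 higher and 70 lower in CD8 than in CD4 T cells, and 408 higher and 24 lower in Ccl5-positive members. Median-of-ratios scaling gave 111 genes lower in Ccl5-positive members and a ribosomal median log2 ratio of 0.43. Without the highest Scrublet scores the median was -0.027 for receptor signalling and 0.38 for ribosomal genes, and the log2 ratio of Tmcc2 was -0.67. A further 13 named genes moved outside their main intervals in this setting. Among them were Dapl1 at 3.47, Cd44 at -0.94, Lmna at -2.50 and Bach2 at 0.54, the last with an interval that included 0. Without the mixed members, an alternative chosen after seeing the data, 421 genes were 2-fold lower with CGG-Cit. Against CD4 T cells, which kept all their barcodes, 566 genes were lower in CD8 T cells. The CD4 side was not cleaned, so this count does not compare like with like. Without the mixed members the medians were 0.078 for interferon, 0.18 for cell cycle and 0.29 for ribosomal genes, and the log2 ratios of Tmcc2 and Igfbp4 were -0.42 and 0.22. Another 22 named genes moved outside their main intervals. Leaving out members with at least 3 UMIs of 14 genes of other lineages kept 123 CGG-Cit and 28 CGG members. Only CD8 T cells were cleaned this way, and kept barcodes, Cd3 barcodes and CD4 T cells stayed whole. The difference in share was then 0.94 percentage points of kept barcodes, 22.2 of Cd3 barcodes and 5.98 with Ccl5. With 27 CGG-Cit and 167 CGG members left out, the differences for kept and Cd3 barcodes do not compare like with like. The counts were 533 higher and 392 lower with CGG-Cit, 696 lower in CD8 than in CD4 T cells and 402 higher in Ccl5-positive members, and the medians -0.11 for memory, 0.11 for interferon, 2.64 for cell cycle and 0.27 for ribosomal genes. The log2 ratios of Tmcc2, Ifi44, Nkg7 and Ifng were -0.69, 1.83, -0.045 and 0.40. A further 27 named genes moved in this setting, among them Gzma to 3.54, and Ccr7 and Cd44 to 0.10 and -0.76, both with intervals that included 0. With Cd8a required the log2 ratio of Tcf7 was 0.15, with an interval that included 0. In this setting 5 named genes moved outside their main intervals. Their log2 ratios were -2.65 for Igfbp4, -1.05 for S100a6, 0.11 for Ccl5, 0.17 for Nkg7 and 0.075 for Ly6c2. The interval of Ly6c2 included 0. Where fewer members or fewer genes entered, the values rest on fewer counts, and otherwise the cause was not tested. Depth limits genes under about 20 UMIs, for which no ratio was read. No paired analysis was possible because each hydrogel has 1 library.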
